A study of Homo sapiens with 10 samples.

Results

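Acetylated H3K4me1 peaks without FAIRE are H3K4me1 peaks of the breast cancer cell line MDAMB231 that share at least 1 base with an H3K27Ac peak and none with a FAIRE or an H3K4me3 peak. They numbered 2482 of the 26355 H3K4me1 peaks on chromosomes 1 to 22, or 9.42% (95% Wilson interval 9.07 to 9.78%). MDAMB231 is a triple-negative, mesenchymal-like line, and all samples were untreated cells of it. Nucleosome-depleted DNA was measured by FAIRE-seq in 2 samples against 1 FAIRE input, and H3K4me1, H3K4me3 and H3K27Ac by ChIP-seq in 2 samples each against 1 ChIP input. Each assay had 1 peak list made from its combined samples, so values carry no replicate error, and the intervals cover counting over loci only. The other H3K4me1 peaks free of H3K4me3 were 13157 open acetylated peaks that met both H3K27Ac and FAIRE, 2955 that met FAIRE without H3K27Ac and 3636 that met neither, while 4125 met H3K4me3. At start sites, H3K4me3 was present at 7 of 7 genes used in mesenchymal-like cells, VIM and ZEB1 among them. It was also present at 6 of 8 epithelial, luminal and basal keratin genes, namely EPCAM, ESR1, PGR, ERBB2, ESRP2 and GATA3. CDH1 and KRT5 lacked it. The mark thus did not tell these gene sets apart and is no check of the line's identity.

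H3K4me1 is placed on nucleosomes that flank enhancers, and acetylation of H3K27, laid down by p300 and CBP, marks the subset that is usually called active. FAIRE recovers DNA that formaldehyde does not crosslink to nucleosomes, so a FAIRE peak marks a stretch where nucleosomes are displaced, commonly by bound transcription factors. In breast cancer lines of this type, AP-1 and TEAD factors are known to occupy many enhancers.

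The sequences show what lies under members of the kinds described below, strongly marked, wide, far from FAIRE or over a start site: the reference DNA at the middle of the segment shared by the H3K4me1 and H3K27Ac peaks, 300 bases of GRCh37 (hg19), plus strand. Capitals mark matches on either strand to any of 12 short motifs: AP-1 (TGANTCA), CRE (TGACGTCA), TEAD (ACATTCC), ETS (CCGGAAGT), RUNX (TGTGGTT), E-box (CACGTG), GC box (GGGCGG), forkhead (TGTTTAC), C/EBP (TTGCGCAA), NF-kB (GGGACTTTC), CTCF core (CAGGGGGCG) and the nuclear factor I motif (TTGGCA). TENM3 names the nearest gene of a member among the highest in H3K27Ac score, at chr4:183175593-183175892. FBXW11 and JUN are those with the highest H3K4me1 scores, at chr5:171381270-171381569 and chr1:59229261-59229560. ABL2 is among the widest, at chr1:179096515-179096814. CADM1 is the one farthest from a FAIRE peak, at chr11:115812313-115812612, and FHAD1 and UTRN are from members that cover a protein-coding start site outside the printed window, at chr1:15672485-15672784 and chr6:145119480-145119779.
TENM3: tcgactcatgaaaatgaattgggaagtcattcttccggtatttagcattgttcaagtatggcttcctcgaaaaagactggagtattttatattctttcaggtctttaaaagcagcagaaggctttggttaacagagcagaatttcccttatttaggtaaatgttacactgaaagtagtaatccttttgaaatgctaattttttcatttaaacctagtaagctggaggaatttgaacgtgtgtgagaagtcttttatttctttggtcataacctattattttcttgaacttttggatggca
FBXW11: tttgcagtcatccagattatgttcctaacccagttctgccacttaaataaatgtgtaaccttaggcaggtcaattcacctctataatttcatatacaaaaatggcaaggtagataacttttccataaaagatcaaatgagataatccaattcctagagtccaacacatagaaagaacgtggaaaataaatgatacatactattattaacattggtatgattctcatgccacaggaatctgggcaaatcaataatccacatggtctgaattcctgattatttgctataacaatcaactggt
JUN: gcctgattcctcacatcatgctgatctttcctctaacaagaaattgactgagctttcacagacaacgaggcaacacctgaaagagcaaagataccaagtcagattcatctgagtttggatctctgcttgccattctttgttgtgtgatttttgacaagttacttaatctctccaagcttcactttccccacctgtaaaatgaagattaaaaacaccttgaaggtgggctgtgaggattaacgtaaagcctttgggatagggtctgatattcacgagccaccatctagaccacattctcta
ABL2: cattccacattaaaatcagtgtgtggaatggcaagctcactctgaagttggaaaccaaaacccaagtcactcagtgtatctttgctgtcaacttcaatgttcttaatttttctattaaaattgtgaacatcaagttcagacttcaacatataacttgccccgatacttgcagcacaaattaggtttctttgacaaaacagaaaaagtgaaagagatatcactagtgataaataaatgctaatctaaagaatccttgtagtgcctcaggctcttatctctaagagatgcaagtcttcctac
CADM1: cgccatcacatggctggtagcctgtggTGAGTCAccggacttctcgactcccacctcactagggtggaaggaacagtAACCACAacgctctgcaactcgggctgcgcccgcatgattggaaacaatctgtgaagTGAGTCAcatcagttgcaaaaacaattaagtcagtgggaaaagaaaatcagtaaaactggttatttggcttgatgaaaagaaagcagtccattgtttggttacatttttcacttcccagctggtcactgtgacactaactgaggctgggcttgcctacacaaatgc
FHAD1: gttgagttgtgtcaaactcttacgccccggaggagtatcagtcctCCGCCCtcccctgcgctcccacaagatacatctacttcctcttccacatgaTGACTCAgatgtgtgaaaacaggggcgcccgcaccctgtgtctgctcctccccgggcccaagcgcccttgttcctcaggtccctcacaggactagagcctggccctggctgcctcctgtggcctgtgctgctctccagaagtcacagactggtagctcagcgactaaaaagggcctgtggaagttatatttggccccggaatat
UTRN: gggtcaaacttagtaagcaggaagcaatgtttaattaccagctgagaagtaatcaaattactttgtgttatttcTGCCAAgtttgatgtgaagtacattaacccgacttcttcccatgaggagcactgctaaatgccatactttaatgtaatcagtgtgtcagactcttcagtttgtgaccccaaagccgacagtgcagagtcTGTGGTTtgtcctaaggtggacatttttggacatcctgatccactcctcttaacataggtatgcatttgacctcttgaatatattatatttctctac
Of the 7 windows shown, CADM1 and FHAD1 held an AP-1 match, and CADM1 held 2. FHAD1 also held a GC box, CADM1 and UTRN a RUNX match, and UTRN a nuclear factor I motif. The windows at TENM3, FBXW11, JUN and ABL2 held none of the 12 motifs. The rule chose 2 more windows, which are not shown here, so these counts describe only the sequences printed. A match is only a run of letters, and its absence says nothing about any factor.

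The members carried weaker H3K27Ac than open acetylated peaks, on every chromosome. Members were chosen by overlap of called peaks, so scores and widths are given as a description: a wider peak has more room to meet another. The score is minus 10 times the log10 of the peak caller's p-value against input, and the lists start at 50. The median H3K27Ac score was 199 (95% interval of the median 188 to 215, quartiles 98.3 and 467), against 628 (605 to 651) in open acetylated peaks. On each of the 22 chromosomes the median was lower in the members. An H3K27Ac score of 100 or more was reached by 1849 members (74.5%, 72.7 to 76.2%). That was a smaller share than the 86.8% of all H3K27Ac peaks on these chromosomes and the 90.3% of open acetylated peaks. Scores of 1000 or more were reached by 264 members (10.6%) and 5084 open acetylated peaks (38.6%). The caller's scores pile up near 3100, and 46 members (1.85%) stood at 3100 or more. So did 1788 open acetylated peaks (13.6%) and 10.6% of all H3K27Ac peaks on these chromosomes.

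H3K4me1 itself followed the same order: the members stood below open acetylated peaks and above both classes without H3K27Ac. The median H3K4me1 score of the members was 97.3 (94.8 to 99.99, quartiles 70.6 and 147, highest 829). It was 168 (165 to 171) in open acetylated peaks, 85.0 (83.3 to 86.8) in FAIRE-positive peaks without H3K27Ac and 70.8 (69.6 to 71.8) in peaks with neither. A score of 100 or more was reached by 1191 members (48.0%), against 57.2% of all H3K4me1 peaks. Median width was 2577 bp (2529 to 2622, quartiles 2108 and 3333) in the members and 3541 bp (3509 to 3578) in open acetylated peaks, while peaks with neither had 2153 bp (2131 to 2180). By width too the members thus stood between the class with neither mark and the class with both. The H3K27Ac peak over a member was 2091 bp wide at the median, and the one over an open acetylated peak 2826 bp. The order of both H3K27Ac score and H3K4me1 width turned when overlap was judged at the midpoint of the H3K4me1 peak alone, with median scores of 629 in members and 572 in open acetylated peaks and widths of 3854 and 3188 bp. That rule takes in peaks whose FAIRE peak lies off centre, and its members numbered 7115. It was not limited to FAIRE, and which of its changes turned the order was not tested.

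**Figure D1:**
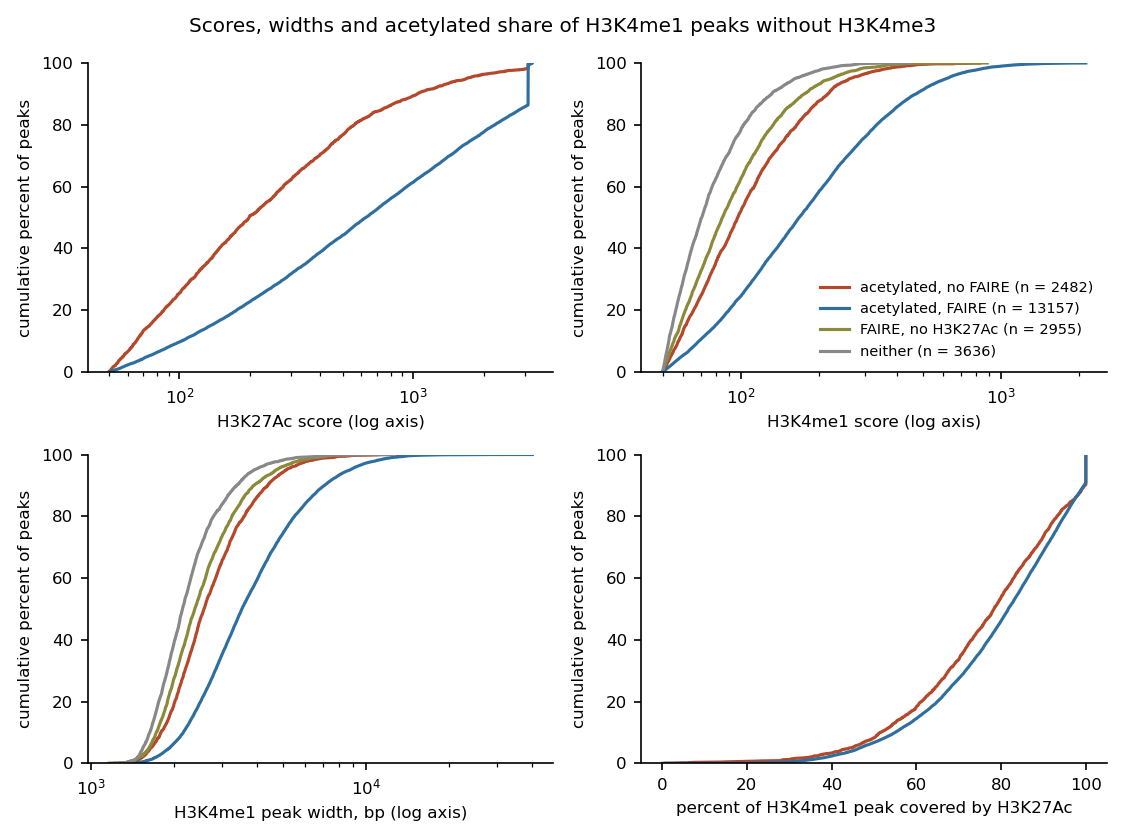
Cumulative percent of H3K4me1 peaks without H3K4me3 (y axes) by H3K27Ac score, H3K4me1 score, H3K4me1 width in bp and percent of the H3K4me1 peak covered by H3K27Ac (x axes), with 1 line for each class. The members (red) lie left of open acetylated peaks (blue) for scores and width, with median H3K27Ac scores of 199 and 628, and nearly on them for the acetylated share.

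Acetylation covered most of the typical member, though not of every one. The median share of the H3K4me1 peak under H3K27Ac was 78.3% (77.6 to 79.2%), a median of 1967 bases, beside 81.7% (81.4 to 82.1%) in open acetylated peaks. In 2278 members (91.8%) at least 50% of the peak was covered, in 243 (9.79%) all of it, and in 8 (0.322%) under 10%. Open acetylated peaks were much alike, with 93.25% covered to at least 50% and 9.17% wholly covered, and 0.0228% had under 10%. At matched H3K27Ac score the order of the 2 classes was the opposite: for scores from 200 to under 500 the median share was 84.1% in members and 78.8% in open acetylated peaks, whose H3K4me1 peaks were wider (3038 against 2666 bp). At matched width it was not: the share was lower in members in all 5 width classes, from 87.05% against 90.7% under 2 kb to 55.4% against 78.9% at 6 kb or more. Only 29 members (1.17%) met more than 1 H3K27Ac peak, while 559 open acetylated peaks (4.25%) did.

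Of the 15639 acetylated H3K4me1 peaks without H3K4me3, the members made up 15.9% (15.3 to 16.5%). The value depends on the rules used: it was 41.8% with only FAIRE peaks from the median height up and 43.2% with overlap judged at the midpoint. The midpoint rule was not limited to FAIRE, so the set of acetylated peaks changed with it. The main share fell with both width and acetylation, so a narrow, weakly acetylated H3K4me1 peak was often without FAIRE and a wide, strongly acetylated one seldom. It was 35.5% (33.0 to 38.2%) among peaks under 2 kb and 2.72% (2.11 to 3.49%) among peaks of 6 kb or more. By H3K27Ac score it was 33.2% (31.1 to 35.4%) from 50 to under 100 and 4.94% (4.39 to 5.55%) at 1000 or more. From the lowest to the highest class, each pattern was present within the classes of the other measure. Among peaks of 2 to under 3 kb the share was 34.2% (31.2 to 37.3%) in the lowest score class and 13.9% (11.5 to 16.7%) in the highest. In the highest score class it was 24.5% (17.3 to 33.5%) for peaks under 2 kb, from 26 of 106, and 1.06% (0.663 to 1.69%) for peaks of 6 kb or more, from 17 of 1603. The remaining combinations lay between 2.93% and 43.0%.

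**Figure D2:**
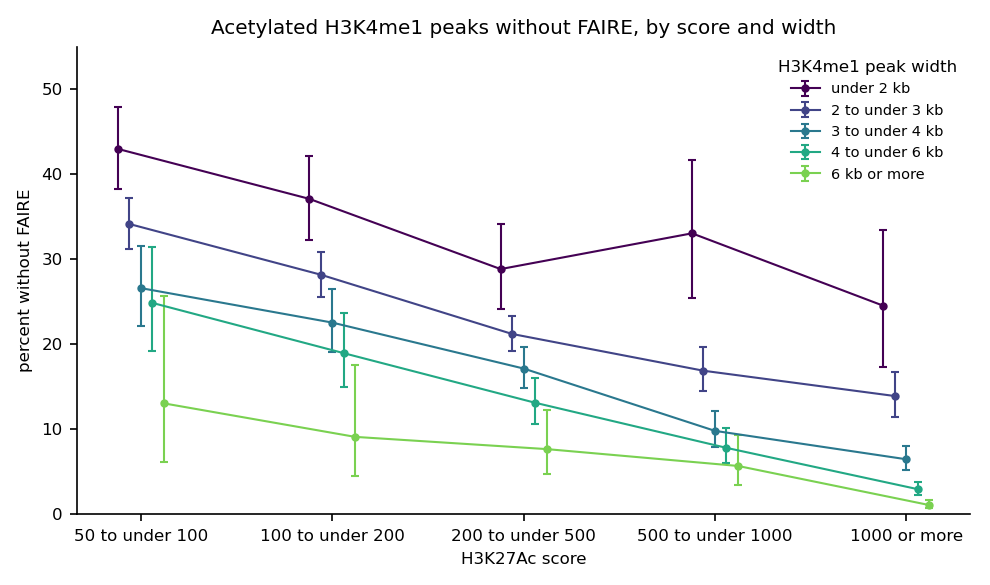
Percent of acetylated H3K4me1 peaks without FAIRE (y axis) by class of H3K27Ac score (x axis) and of H3K4me1 width (lines), with 95% Wilson intervals. The highest point is 43.0% for narrow peaks with low scores and the lowest 1.06% for wide peaks with high scores.

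The members were distributed unevenly over chromosomes, together with the height at which the FAIRE list began. The share of acetylated peaks without FAIRE ran from 7.46% (4.98 to 11.03%) on chromosome 16 to 20.2% (17.9 to 22.6%) on chromosome 6, with a median of 15.7%. The lowest FAIRE height in the list was not the same on every chromosome: it was 15.2 on chromosome 18 and 35.6 on chromosome 20, whereas the lowest H3K27Ac score per chromosome lay between 50.02 and 51.3. Over the 22 chromosomes, the Spearman correlation of the lowest FAIRE height with the share without FAIRE was 0.57, and that of the median FAIRE height was 0.59. The 6 chromosomes with a median FAIRE height under 50 (2, 13, 16, 18, 21 and 22) held 302 members among 2767 acetylated peaks, or 10.9% (9.81 to 12.1%). The other 16 held 2180 among 12872, or 16.9% (16.3 to 17.6%). Chromosome 20 went the other way, with the highest floor and a share of 10.9% (7.70 to 15.2%). The chromosomes share libraries and peak calling, this split was made after the values were seen, and the part of the floor in the shares was not tested beyond an added alternative. In that alternative every chromosome kept only FAIRE peaks of 35.6 or taller, and 17.8% of acetylated peaks, 2777 in number, were without FAIRE.

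FAIRE peaks were usually near the members, though seldom at their edge. The median gap from the edge of a member to the nearest FAIRE peak was 10871 bp (10264 to 11502, quartiles 4584 and 24970), and 12220 bp (11625 to 12872) for H3K4me1 peaks with neither mark. A FAIRE peak lay within 500 bp of 24 members (0.967%), within 1 kb of 71 (2.86%), within 5 kb of 663 (26.7%), within 10 kb of 1169 (47.1%, 45.1 to 49.1%) and within 50 kb of 2221 (89.5%). Whether a member and its nearest FAIRE peak serve the same gene was not tested. The peaks with neither had a FAIRE peak within 10 kb in 43.98% (42.4 to 45.6%). The nearest FAIRE peaks were of ordinary height, with a median of 62.6 (61.4 to 63.8) against 61.9 in the whole list. The members with the strongest acetylation had the shortest gaps, with a median of 6966 bp (5334 to 8866) at scores of 1000 or more and 11942 bp (10518 to 13680) at scores under 100. Even so, 113 of the 264 members with scores of 1000 or more (42.8%, 36.98 to 48.8%) had no FAIRE peak within 10 kb. That class includes members whose H3K27Ac peak itself reached a FAIRE peak. There were 79 such members over all scores, with a median score of 2227. Whether the shorter gap holds without them was not tested.

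Counted in bases from the peaks as called, few loci lay at the limit of the rule. The 5 members nearest to a FAIRE peak had gaps of 3, 14, 17, 22 and 42 bases, and the 5 open acetylated peaks with the smallest FAIRE overlap shared 13, 46, 54, 62 and 69 bases. Only 8 members had a FAIRE peak within 100 bp, and 6 open acetylated peaks shared under 100 bases. On the acetylation side, the smallest overlaps with H3K27Ac were 3, 59, 100, 106 and 134 bases, and the nearest peaks with neither mark were 8, 30, 37, 49 and 51 bases from an H3K27Ac peak. The H3K4me3 peak nearest to a member was 172 bases away.

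The highest-scoring H3K27Ac peak over a member seldom reached a FAIRE peak elsewhere. It did so for 79 members (3.18%, 2.56 to 3.95%), and these H3K27Ac peaks were strong and long, with a median score of 2227 (1767 to 3100) and a median width of 6013 bp (5180 to 6942). In the other 2403 members that H3K27Ac peak was free of FAIRE from end to end, with a median score of 190 (179 to 200) and width of 2066 bp (2034 to 2102). It met an H3K4me3 peak in 17 members (0.685%, 0.428 to 1.09%), with a median width of 8488 bp. The same held for 0.281% (0.204 to 0.387%) of open acetylated peaks.

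In FAIRE and H3K27Ac peaks nearby, members were much like open acetylated peaks, while H3K4me3 peaks and other members were somewhat more frequent around them. Within 50 kb outside the peak, members had a mean of 3.52 FAIRE peaks, and 10.5% (9.37 to 11.8%) had none. Open acetylated peaks had 3.59, and 9.90% (9.40 to 10.4%) had none. H3K27Ac peaks numbered 2.97 around members, 2.86 around open acetylated peaks and 2.52 around peaks with neither. The nearest other H3K4me1 peak was a median of 10191 bp (9518 to 11076) from a member and was open and acetylated for 1339 members (53.9%, 52.0 to 55.9%). Another member was the nearest in 337 cases (13.6%, 12.3 to 15.0%), compared with 10.4% (9.86 to 10.9%) for open acetylated peaks and 8.28% (7.43 to 9.22%) for peaks with neither. Each of the 4 classes free of H3K4me3 had its own kind as nearest neighbour more often than its share of all H3K4me1 peaks, and the members' 13.6% against 9.42% was no exception. In 190 cases that neighbouring member was within 10 kb. An H3K4me3 peak lay within 5 kb of 194 members (7.82%, 6.82 to 8.94%) and 6.26% (5.86 to 6.69%) of open acetylated peaks, but also of 8.17% (7.32 to 9.10%) of peaks with neither mark. No H3K4me3 peak lay within 50 kb of 46.1% (44.2 to 48.1%) of members and 49.9% (49.1 to 50.8%) of open acetylated peaks.

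**Figure D3:**
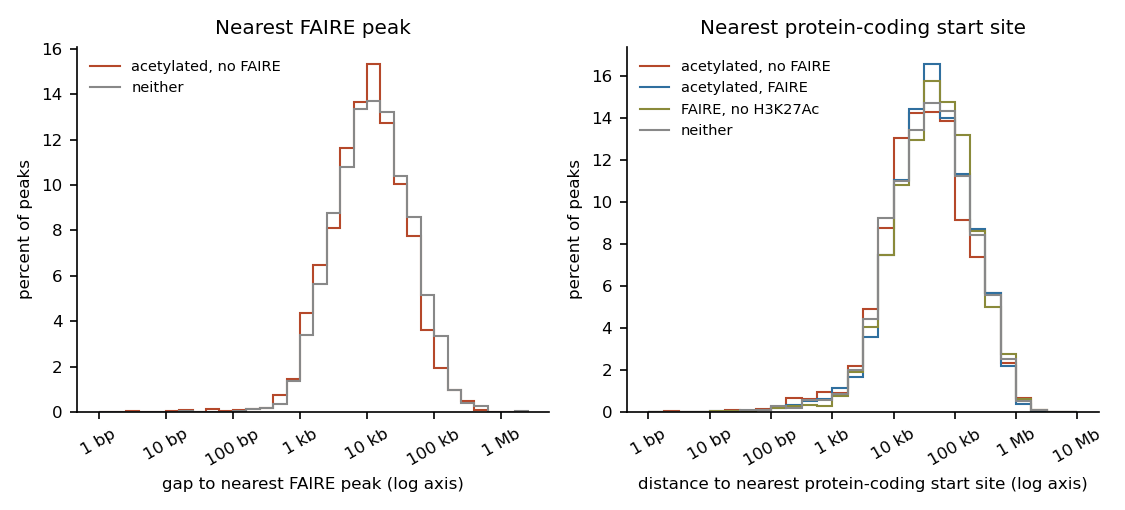
Percent of peaks (y axes) by gap to the nearest FAIRE peak (left, log x axis) and by distance to the nearest protein-coding start site (right, log x axis), by class. Median gaps were 10871 bp for the members and 12220 bp for peaks with neither mark, and median start site distances were 37416 bp for the members and 42996 bp for open acetylated peaks.

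Members lay mostly in introns, as distal enhancers do, and a little nearer to start sites than open acetylated peaks did. Against GENCODE v44lift37, 1569 members (63.2%, 61.3 to 65.1%) had their centre in an intron, 670 (26.99%, 25.3 to 28.8%) between genes, 138 (5.56%, 4.73 to 6.53%) in a promoter and 105 (4.23%, 3.51 to 5.10%) in an exon. A promoter ran from 1 kb before to 100 bp after any annotated start site. In open acetylated peaks 60.8% (60 to 61.7%) were intronic and 29.7% (29.0 to 30.5%) intergenic, and the intronic share was higher in members on 14 of 22 chromosomes. With protein-coding transcripts alone, 51.7% of members were intronic. The nearest protein-coding start site was a median of 37416 bp away (33758 to 40944), compared with 42996 bp (42018 to 44476) for open acetylated peaks, 47275 bp (44809 to 50143) for FAIRE without H3K27Ac and 42295 bp (39454 to 45220) for neither. It lay within 10 kb of 483 members (19.5%, 18.0 to 21.1%) and 2073 open acetylated peaks (15.8%, 15.1 to 16.4%), and that order held under all 13 alternatives tried. The peaks with neither mark had 18.3% (17.0 to 19.55%), which overlapped the members, and their intronic share was 65.4% (63.8 to 66.9%), so neither value was particular to the members. On 5 of 22 chromosomes the median distance was longer in members. Members were nearer in each of 5 width classes, for example 30917 bp (26533 to 36359) against 43065 bp (40896 to 46180) at 3 to under 4 kb. Within classes of H3K27Ac score the intervals of the 2 classes overlapped in all 5, and at 500 to under 1000 the medians were nearly equal, 42350 and 42819 bp. In the widest class of 6 kb or more, the 59 members had a median of 14454 bp (6101 to 19777) and the 2110 open acetylated peaks 35473 bp (33449 to 37741).

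A total of 1414 members (57.0%) had their centre inside a protein-coding gene, and for 1227 of these (86.8%) the nearest start site belonged to that gene. By nearest start site the members pointed to 1801 of 19222 protein-coding genes, or 9.37%. Most of these genes, 1359, had 1 member each, while 297 had 2, 87 had 3 and 23 had 5 or more. Long genes and genes beside wide intergenic stretches have room for more peaks of any kind, so such counts are positions and not a measure of activity.

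The 10 genes with most members off chromosome 8, with ties ordered by summed H3K4me1 width, also had open acetylated peaks. ARHGEF28, a guanine nucleotide exchange factor, and CITED2, a regulator that binds CBP and p300, had 7 members each beside 13 open acetylated peaks each. The ARHGEF28 members ran from a score of 61.0 for H3K27Ac at chr5:73196280-73199418, in an exon, to 3100 at chr5:73054782-73058120, in an intron, where the H3K27Ac peak with that score met only the edge of the member. The CITED2 members were all on one side of the gene, 203351 to 687515 bp from its start site, and the farthest, chr6:140381632-140384967, was wholly acetylated at a score of 2674. HMGA2, which encodes an architectural chromatin protein, had 6 members and 13 open acetylated peaks. Of its members, chr12:66232357-66237401 met the end of an H3K27Ac peak of 17842 bp with a score of 3100, and chr12:66170698-66175253 had a score of 2277 with no FAIRE peak for 56266 bp. EPS8, an actin regulator and EGF receptor substrate, had 6 members and 7 open acetylated peaks, and 1 member, chr12:15864908-15867161, had its centre in a promoter, 108 bp from the start site. KLF6, a zinc finger transcription factor, had 6 members, all intergenic and 160603 to 485509 bp away, beside 11 open acetylated peaks. RBPJ, the DNA-binding partner of Notch, had 6 and 8. LYPLAL1, a lysophospholipase-like protein, had 6 of each, so at this gene the 2 classes were equal in number. FGGY, a carbohydrate kinase, had 6 and 11, and both HS3ST1, a heparan sulfate sulfotransferase, and TENM3, a teneurin, had 6 and 19. TIAM2, an exchange factor for Rac that had 6 members and 9 open acetylated peaks, fell outside the 10 by the tie and is named after its values were seen.

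Among the gene lists, those of YAP and TEAD, adhesion, matrix and receptor tyrosine kinases had the largest shares of genes with a member, and they had the largest shares with an open acetylated peak as well. Of 20 YAP and TEAD factors and targets, 9 (45.0%, 25.8 to 65.8%) were nearest to a member and 14 to an open acetylated peak, against 9.37% and 26.8% of all protein-coding genes. TGFB2, a secreted growth factor in that list, had 4 members, of which chr1:218883417-218886410 had an H3K27Ac score of 3100 and lay 1956 bp from a FAIRE peak of height 202, and AMOTL2, a motin that binds YAP, had 2. Of 28 integrin, laminin and matrix genes, 12 (42.9%, 26.5 to 60.9%) had a member and 19 an open acetylated peak. THBS1, a matrix glycoprotein, had 4 members in introns of other transcripts 314172 to 378265 bp away, and COL1A1 had 1 member of 7632 bp, 45.05% of it acetylated. Of 30 genes of the actin cytoskeleton and focal adhesions, 10 (33.3%, 19.2 to 51.2%) had a member, with 2 at VCL, which encodes vinculin, and 1 at LPP, a focal adhesion protein, which had 18 open acetylated peaks. Of 27 receptor tyrosine kinases and feedback genes of the RAS and ERK pathway, 9 (33.3%, 18.6 to 52.2%) had a member and 23 an open acetylated peak. ERRFI1, an inhibitor of the EGF receptor, had 4 members, and PHLDA1, a pleckstrin homology protein induced by ERK signalling, had 3.

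Other lists held fewer. Members were nearest to 6 of 22 TGF-beta and BMP genes (27.3%, 13.2 to 48.2%), with 3 at TGFBR2, a TGF-beta receptor, and 2 at INHBA, an activin subunit, whose member chr7:41619188-41622035 lay 102910 bp from any FAIRE peak. Chromatin writers and erasers had 5 of 24 (20.8%, 9.24 to 40.5%), with 3 at HDAC9 and 2 at HDAC4, both class IIa deacetylases. Of 16 AP-1 and related factors 2 had members, JUN with 2 and ATF3, a stress-induced factor, with 1 (12.5%, 3.498 to 36.02%). Epithelial adhesion and luminal genes had 3 of 28 (10.7%, 3.71 to 27.2%), of which GATA3, a luminal transcription factor, had 5 members at 248306 to 940608 bp and ESR1, the oestrogen receptor, had 1 of score 143. NF-kB and cytokine genes had 2 of 23 (8.70%, 2.42 to 26.8%), namely NFKBIZ, a nuclear I kappa B protein, with 2 and TNFAIP3, an inhibitor of NF-kB, with 1. The intervals of the last 4 of these lists contained the 9.37% of all genes.

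Off chromosome 8, the members first in order of H3K27Ac score were of different kinds. In FAM24B, chr10:124623335-124625838 had a score of 3154.5, and its H3K27Ac peak of 6383 bp ran on to a FAIRE peak 1745 bp beyond the member. At TENM3, chr4:183175525-183177521 had a score of 3148, yet only 437 bases (21.9%) lay under the end of that 6345 bp H3K27Ac peak. The next 3 were among many members tied at 3100 and were taken by their H3K4me1 scores. In RAC2, the intronic member chr22:37623404-37628809 was 88.1% acetylated with an H3K4me1 score of 661, and FAIRE was 9423 bp away. In NR6A1, an orphan nuclear receptor, chr9:127456169-127462174 was 6006 bp wide and 92.8% acetylated, with FAIRE at 11531 bp. Near SH3GLB1, a membrane-curving endophilin, the intergenic member chr1:87238107-87242244 was 89.0% acetylated and had a FAIRE peak 836 bp away.

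The members with the highest H3K4me1 scores differed in how much of the peak was acetylated, from 54.8% to 91.8%. In FBXW11, an F-box protein of ubiquitin ligases, chr5:171379300-171385811 had an H3K4me1 score of 829 and an H3K27Ac score of 2546 over 59.8% of its 6512 bp, and the nearest FAIRE peak was 47709 bp away. Near JUN, the AP-1 subunit, chr1:59226901-59231540 had an H3K4me1 score of 754 and an H3K27Ac score of 3051 over 91.8% of it, 20498 bp from the start site and 3339 bp from FAIRE. In ZNF507, a zinc finger protein, chr19:32839268-32844892 scored 726 and lay 1014 bp from an H3K4me3 peak and 18502 bp from FAIRE. In RAD51B, a recombination factor, chr14:68711314-68719045 scored 700, and near OGFRL1 chr6:72092702-72099984 scored 665. These 5 were therefore marked as strongly as many open acetylated peaks, whose upper quartile of the H3K4me1 score was 291.

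Wider members had higher scores at the median, with H3K27Ac at 134 under 2 kb and 518 at 6 kb or more, but the widest ones differed in score. The widest member, chr14:62176510-62189831 in HIF1A, the oxygen-regulated transcription factor, spanned 13322 bp with an H3K4me1 score of 113 and a highest H3K27Ac score of 267, and more than 1 H3K27Ac peak together covered 49.7% of it. In ABL2, a tyrosine kinase, chr1:179091743-179103200 spanned 11458 bp with an H3K4me1 score of 559, and an H3K27Ac peak of 9602 bp lay wholly within it. In ERGIC1, a protein of transport from the endoplasmic reticulum to the Golgi, chr5:172279148-172290348 spanned 11201 bp at an H3K27Ac score of 3100. In HMGA2, chr12:66243541-66254513 spanned 10973 bp with a highest H3K27Ac score of 73.8.

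**Figure D4:**
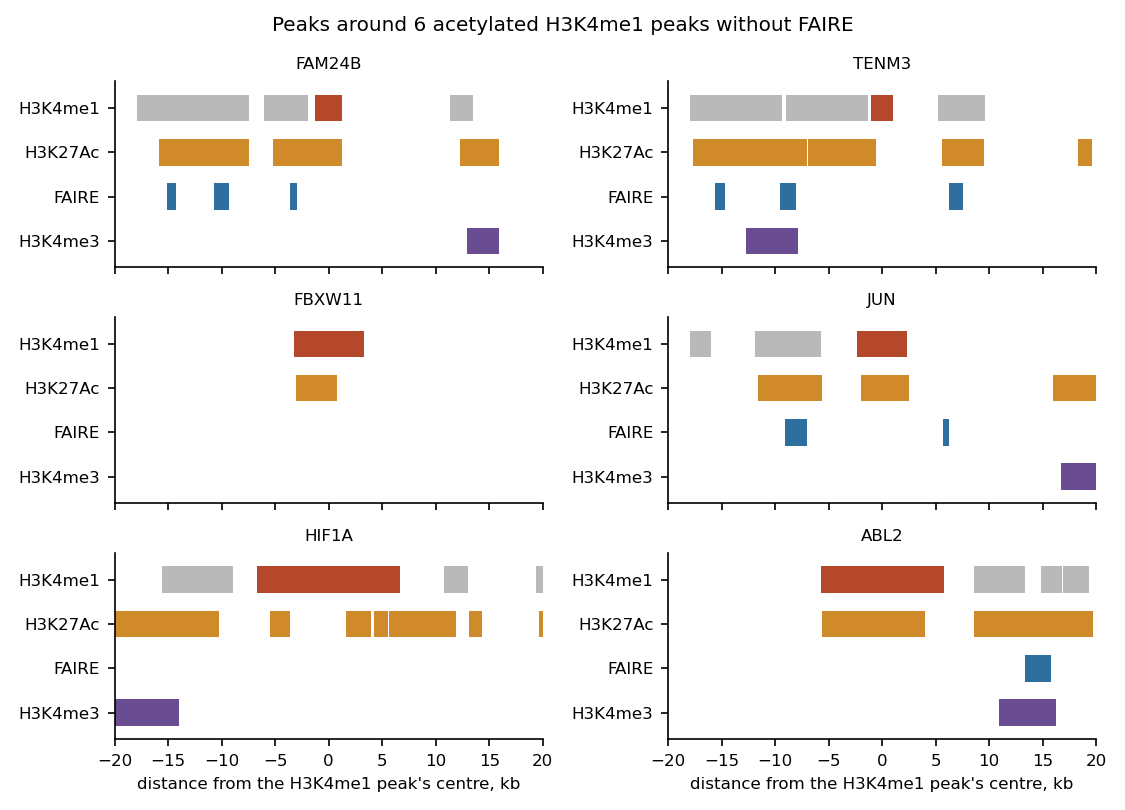
Peaks of the 4 lists within 20 kb of the centre of 6 members (x axis in kb, 1 lane for each assay, the member in red). FBXW11 had no FAIRE or H3K4me3 peak in the window, HIF1A had no FAIRE peak in it, and the FAM24B member shared its H3K27Ac peak with a neighbour that had FAIRE.

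Of the 5 longest gaps, 4 were far from any protein-coding start site, at 436873 to 530406 bp, and the one near ALKAL2 was 28959 bp from the nearest. Near CADM1, a cell adhesion molecule, chr11:115811159-115813936 was 435564 bp from the nearest FAIRE peak with an H3K27Ac score of 71.7. Near CDK5RAP2, a centrosome protein, chr9:122724847-122727153 was 378983 bp away, and chr1:30555696-30558229, nearest to a gene without a symbol, 362475 bp. Near FZD8, a Wnt receptor, chr10:36459817-36463443 was 359451 bp away with an H3K27Ac score of 1423, the only one of the 5 above 1000, and its nearest H3K4me1 neighbour was another member. Near ALKAL2, a ligand of the receptor ALK, chr2:316591-319028 was 347789 bp away. At the other end, the genes nearest to the members with the shortest gaps were SHISA9 (chr16:13205011-13207907), the ubiquitin ligase NEDD4L (chr18:55853950-55856019), the galanin receptor GALR1 (chr18:74918344-74920467), the succinate-CoA ligase subunit SUCLG1 (chr2:83015582-83017495) and EPHA4 (chr2:221961281-221963679), an ephrin receptor. In each of these 5 the H3K27Ac peak ran past the edge of the H3K4me1 peak and covered the whole of the FAIRE peak. All were on chromosomes 2, 16 and 18, where the FAIRE list began at 22.02, 19.5 and 15.2.

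Some members covered start sites that had no H3K4me3 peak. There were 97 (3.91%) with a protein-coding start site inside. This was counted in members only, so the share is not shown to be particular to them. The 5 with the highest H3K27Ac scores off chromosome 8 were at FHAD1 (chr1:15670342-15675108, score 2099), UTRN (chr6:145118228-145121032, 1837), CCDC85C (chr14:100038286-100044321, 1817), FNDC7 (chr1:109261311-109265192, 1338) and EML6 (chr2:55177787-55181246, 1328). UTRN encodes utrophin, the homologue of dystrophin, and its member was wholly acetylated, 37831 bp from FAIRE and 177209 bp from H3K4me3. The FHAD1 and EML6 members had FAIRE at 1045 and 1935 bp, and those of CCDC85C and FNDC7 at 45102 and 13340 bp.

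Base composition barely set the members apart. The median GC content of the 300-base windows was 41.3% (41.0 to 41.7%, quartiles 36.3 and 46.7%), against 42.0% (41.7 to 42.0%) in open acetylated peaks, and was higher in members on 9 of 22 chromosomes. Windows held a mean of 2.73 CpG in members and 2.81 in open acetylated peaks, and 13.9% (12.6 to 15.3%) and 12.2% (11.6 to 12.7%) held none. No window had an undetermined base.

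The AP-1 motif was less frequent in the members than in open acetylated peaks. It was in 774 member windows (31.2%, 29.4 to 33.0%) and 4751 windows of open acetylated peaks (36.1%, 35.3 to 36.9%). Peaks with neither mark have no shared segment, and at their H3K4me1 centre 28.8% (27.3 to 30.3%) held it, against 27.2% of members with windows placed that way. At the centre of all 26355 H3K4me1 peaks 27.3% of such windows held it. The share was lower in members on 18 of 22 chromosomes and in each class of H3K27Ac score: 30.8% (27.3 to 34.5%) against 42.5% (39.8 to 45.2%) at scores from 50 to under 100, and 21.6% (17.1 to 26.9%) against 27.1% (25.9 to 28.3%) at 1000 or more. In that top class the intervals overlapped, and in the other 4 classes they did not. With windows at the centre of the H3K4me1 peak the shares drew close, 27.2% (25.5 to 29.0%) in members and 28.8% (28.0 to 29.6%) in open acetylated peaks, and with 1000 bases they were 62.1% (60.2 to 64.0%) and 68.2% (67.4 to 69.0%).

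The comparison depended on where FAIRE lay in the open acetylated peak. In 11292 of these (85.8%) a FAIRE peak reached the window, and 39.8% (38.9 to 40.7%) of these windows had AP-1. In the other 1865 the FAIRE peak lay elsewhere in the H3K4me1 peak, and 14.0% (12.5 to 15.6%) had AP-1. The members, at 31.2%, fell between the 2, although no FAIRE peak reached them either. At the centre of the tallest FAIRE peak of each open acetylated peak, AP-1 was in 49.1% (48.3 to 49.99%). Counted over whole peaks, AP-1 matches numbered 5.52 per 10 kb (5.34 to 5.69, 2 counting errors each way) in the members and 6.28 (6.06 to 6.50) in their bases shared with the highest-scoring H3K27Ac peak. Over whole open acetylated peaks the density was 5.87 (5.81 to 5.94), little above that of the members. Open acetylated peaks had 10.4 (10.3 to 10.6) per 10 kb inside FAIRE and 3.675 (3.61 to 3.74) outside it, and peaks with neither had 5.84 (5.68 to 6.01).

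**Figure D5:**
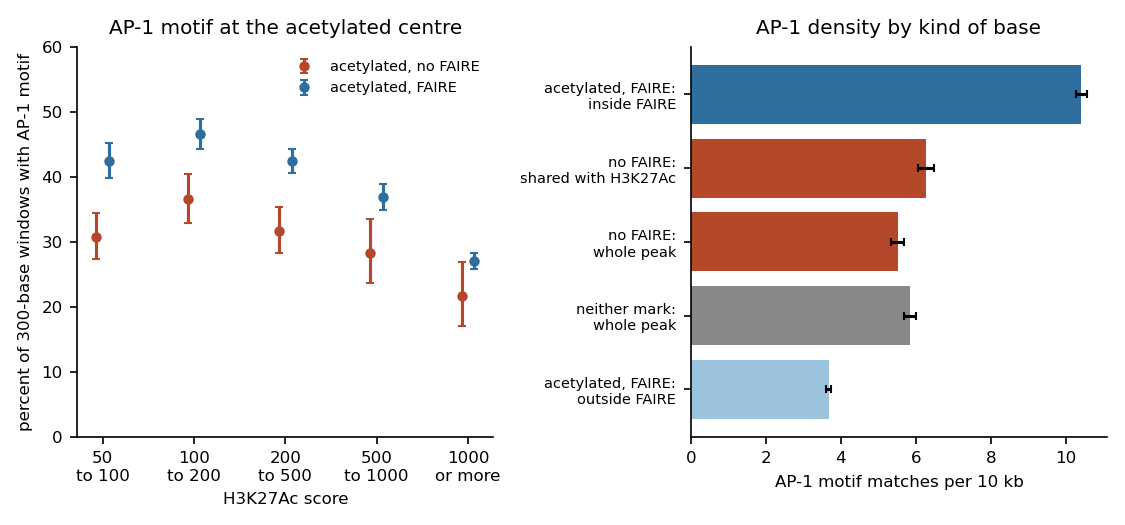
Left, percent of 300-base windows with an AP-1 match (y axis) by class of H3K27Ac score (x axis), with 95% Wilson intervals, in members (red) and open acetylated peaks (blue). Right, AP-1 matches per 10 kb (x axis) in 5 kinds of base, with bars of 2 counting errors each way. Members had 5.52 per 10 kb over whole peaks, and open acetylated peaks 10.4 inside FAIRE and 3.675 outside it.

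Other motifs went the opposite way or did not differ beyond their intervals. TEAD was in 235 member windows (9.47%, 8.38 to 10.7%) and 7.32% (6.89 to 7.78%) of open acetylated windows, and the order was kept with H3K4me1-centred windows (7.45% and 6.48%, with overlapping intervals) and with 1000 bases (23.1% and 19.9%). At the centre of the tallest FAIRE peak of open acetylated peaks it was in 8.92% (8.45 to 9.42%), which overlapped the members. Per 10 kb, TEAD matches numbered 1.935 (1.83 to 2.04) in the members, below the 2.23 (2.16 to 2.30) inside FAIRE and above the 1.56 (1.52 to 1.60) outside it in open acetylated peaks. By H3K27Ac score the order of the windows was kept in the 3 classes under 500 and not in the 2 above, where members had 7.33% and 7.20% and open acetylated peaks 7.58% and 7.61%. The GC box was in 129 (5.20%, 4.39 to 6.14%) against 3.62% (3.31 to 3.95%), with the order kept in 4 of 5 score classes. With H3K4me1-centred windows the GC box shares were 4.27% (3.54 to 5.14%) and 3.47% (3.17 to 3.80%), with overlapping intervals. The GC box is bound by SP and KLF factors and is common in promoters. The E-box was in 3.63% (2.96 to 4.44%) and 2.93% (2.65 to 3.23%), RUNX in 8.78% (7.73 to 9.96%) and 9.87% (9.38 to 10.4%), forkhead in 6.77% (5.85 to 7.83%) and 6.29% (5.89 to 6.72%), and the nuclear factor I motif in 17.6% (16.2 to 19.2%) and 18.1% (17.5 to 18.8%). The longer motifs were rare in members: ETS and NF-kB were in 7 windows each, CRE in 3, C/EBP in 1 and the CTCF core in none. They were rare in open acetylated windows too, so this was not particular to the members. ETS was in 0.282% of member and 0.274% of open acetylated windows, and NF-kB in 0.282% and 0.289%. CRE was in 0.121% and 0.182%, C/EBP in 0.0403% and 0.0456%, and the CTCF core in none and 0.0456%. Over all H3K4me1 peaks, in windows at the peak centre, the shares were 6.20% for TEAD, 4.16% for the GC box and 8.82% for RUNX. In windows placed the same way the members had 7.45%, 4.27% and 7.82%, so their GC box share was close to that of all peaks, which include those that met H3K4me3. Over whole peaks, GC box matches numbered 1.88 per 10 kb (1.78 to 1.98) in the members. Open acetylated peaks had 1.49 (1.46 to 1.53) and peaks with neither 1.10 (1.025 to 1.17).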

How the data were processed

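The 4 peak lists, 1 per assay, were made by the authors, who combined the 2 samples of each assay, aligned reads to hg19 with BWA and removed duplicates. The deposited FAIRE list gives each peak's height, a signal value from FindPeaks, and no scaling of it is stated. In the deposited histone lists the score is the log10 of the p-value that MACS gave against input, multiplied by minus 10. Files were assigned to assays by row counts equal to the study's peak numbers. The lists carry no read counts, so depth could not be read from them.

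Overlap meant 1 shared base. Genes came from GENCODE v44lift37 and sequence from GRCh37, read with Python 3.11.15, pandas 2.3.3 and NumPy 2.4.6, and the overlap and motif code was tested on simulated data. The highest H3K27Ac score was taken where several peaks met a member. Shares have Wilson intervals and medians order-statistic intervals. No test was made. The members, gene lists and motifs were chosen with earlier results of these data known. Named genes were the top 5 members, off chromosome 8, by H3K27Ac score (ties by H3K4me1 score), H3K4me1 score, width, longest and shortest FAIRE gap and acetylated start site, the 10 genes with most members, ties by summed width, and the top 2 of each list, and 1 of the widest members is not described here.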

Additional observations from a re-analysis of the deposited data

How the results depend on the processing

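The number of members, 2482, was within 1.5 times under 9 of 12 alternatives. With overlap judged at the midpoint of the H3K4me1 peak alone, there were 7115 members, making up 43.2% of acetylated peaks, with a median H3K27Ac score of 629, width of 3854 bp, gap to FAIRE of 0 and a start site within 10 kb in 25.5%. These members include peaks whose FAIRE peak lies off centre, and the midpoint rule was not limited to FAIRE. Keeping only the taller FAIRE peaks, from the median height up, there were 6544 (41.8%), with a median score of 280, width of 2761 bp, acetylated share of 80.6%, gap of 24133 bp and a start site within 10 kb in 17.3%. With H3K4me1 scores of 100 or more there were 1191 (10.7%), with a median score of 263, width of 3060 bp, acetylated share of 74.8% and gap of 9904 bp. With H3K27Ac scores of 100 or more the share was 13.5%, the score 304, the width 2673 bp and the acetylated share 82.9%. With FAIRE peaks at or above the highest chromosome floor, an alternative added after seeing the data, the share was 17.8%.

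The intronic share was 56.9% with promoters of 2 kb each side and 51.7% with protein-coding transcripts, and a start site of any gene type lay within 10 kb in 48.3%. AP-1 was in 27.2% of windows at the centre of the H3K4me1 peak and in 62.1% of 1000-base windows, whose median GC was 40.8%. Of 22 values of the other 11 motifs, 9 kept to the interval of the main value and 13 moved. Widened FAIRE or H3K4me3 peaks, added chromosome X, an overlap of 100 bases and starts counted from 1 moved none of the values they were tried on, which leaves out GC and motifs, nor, among alternatives added after seeing the data, did requiring the H3K27Ac peak to be free of FAIRE.

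No paired analysis was possible because the 2 samples of an assay were merged into 1 list. The lists hold no read depth, so a missing FAIRE peak means that none was called, not that the DNA was closed. Nearest genes are positions, and no expression was analysed here.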
